A study of Mus musculus with 11 samples.

Results

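The cell surface receptors for the EGF, FGF and PDGF families of growth factors were followed through the differentiation of mouse neural stem cells (NSC). The set held 9 genes, chosen by gene symbol: Egfr, Erbb2, Erbb3 and Erbb4 of the EGF receptor family, Fgfr1, Fgfr2, Fgfr3 and Fgfrl1 of the FGF receptor family, and Pdgfrb of the PDGF receptors. They are 9 genes of a table of 37991 rows. These symbols stood on 10 of those rows, because Fgfr1 was listed under 2 identifiers, and the second of these rows was 0 in all 11 libraries and was not used. All 9 genes were among the 13342 that reached 1 CPM (reads of a gene scaled to the size of the library) in at least 2 libraries and were tested.

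The cultures came from the frontal cortex of C57BL/6J mouse embryos at embryonic day 14.5 and were expanded in a commercial NSC proliferation medium. The NSC group (day 0, 3 libraries) was sampled from that medium, and the other cultures after 4 days in a replacement medium. The Astrocyte group (3 libraries) received DMEM supplemented with 1% fetal bovine serum and 1% N-2, the Neuron group (3 libraries) Neurobasal with 2% B-27 supplement, and the Oligodendrocyte group (2 libraries) the medium of the Neuron group with 30 ng/mL of the thyroid hormone T3. All 3 of these media also held 2 mM GlutaMAX, a source of glutamine, and the labels name no EGF, FGF or PDGF added to any of them. The group names therefore stand for media. No transgene, deletion or sorting was described. The labels speak of biological replicates without saying whether these were separate cultures or embryos, so p-values measure only the spread between these libraries.

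All groups were bulk cultures, in which fewer cells of a type and less RNA per cell cannot be told apart. No culture was kept in the proliferation medium until day 4, so in comparisons with NSC the medium and the time cannot be told apart. Marker genes showed mixed cultures. Mature oligodendrocyte markers summed to 2793 to 3014 CPM in Neuron and 2805 to 3213 CPM in Oligodendrocyte, against 467 to 601 CPM in Astrocyte and 76.9 to 85.6 CPM in NSC. Astrocyte markers summed to 15006 to 16649 CPM in Astrocyte, 10255 to 10960 CPM in Neuron, 3931 to 4447 CPM in Oligodendrocyte and 1914 to 1981 CPM in NSC. Gfap, at a mean of 7631 CPM in Astrocyte and 2647 CPM in Neuron, carried much of this sum, and 6 of the 10 astrocyte markers, among them Slc1a2 and S100b, were called lower in Astrocyte than in Neuron while 3 were called higher. The sum of the neuron markers did not set the Neuron group apart from NSC: it was 919 to 1199 CPM there and 926 to 1010 CPM in NSC. Map2, at a mean of 865.6 CPM in Neuron and 885.3 CPM in NSC, carried most of this sum. From NSC to Neuron, Dcx rose from 1.6 to 147.7 CPM, Tubb3 from 3.9 to 28.45 CPM and Syt1 from 6.32 to 11.07 CPM. Gap43 fell from 71.01 to 21.63 CPM. Dcx and Tubb3 were also high in Astrocyte, at 124.8 and 41.16 CPM, and in Oligodendrocyte, at 86.62 and 44.79 CPM. The neurofilament genes Nefl and Nefm and the neuronal gene Stmn2 averaged under 1 CPM in both NSC and Neuron. Cell cycle markers summed to 2651 to 2698 CPM in NSC and to 117 to 180 CPM in the day 4 libraries. The part of these differences in the receptor results below was not tested. Depth, estimated from the spacing of low values, was 49.3 to 66.2 M reads per library, and libraries of a group correlated at 0.99 or more over the genes tested.

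Receptors of these families are single-pass proteins of the cell surface that pair when a ligand binds and then phosphorylate each other, which passes the signal on through adaptor proteins to the RAS, ERK and PI3-kinase pathways. Within the EGF receptor family, EGFR binds EGF, TGF-alpha, amphiregulin and HB-EGF, ERBB3 and ERBB4 bind neuregulins, and ERBB2 binds no known ligand and serves as the partner of the others. FGFR1 to FGFR3 bind FGFs together with heparan sulfate, whereas FGFRL1 lacks the kinase. PDGFRB binds mainly PDGF-B and PDGF-D. In the nervous system EGF and FGF2 are the classic mitogens of cultured neural stem cells, ERBB3 and ERBB4 are known from glia and neurons, FGFR3 from astrocytes and their precursors, and PDGFRB is best known as a marker of pericytes, the contractile cells around capillaries.

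Of the 9 genes, 6 had an entry in the RefSeq table of start regions (mouse build GRCm38.p6). The stretches of 250 bases before the start of Egfr and Erbb4 are printed because these members of 1 family moved farthest in opposite directions on the log2(CPM + 1) scale after the change of medium. The Egfr stretch is chr11:16751953-16752202 on the plus strand and the Erbb4 stretch is chr1:69108060-69108309 on the minus strand; both are written 5′ to 3′ along the gene and end at the base before the start. Capitals mark the 1 match found to the 6 motifs searched.
Egfr: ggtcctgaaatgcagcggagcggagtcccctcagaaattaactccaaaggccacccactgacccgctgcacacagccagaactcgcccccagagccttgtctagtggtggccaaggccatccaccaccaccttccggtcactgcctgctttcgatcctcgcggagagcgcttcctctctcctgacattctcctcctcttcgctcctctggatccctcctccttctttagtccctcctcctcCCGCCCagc
Erbb4: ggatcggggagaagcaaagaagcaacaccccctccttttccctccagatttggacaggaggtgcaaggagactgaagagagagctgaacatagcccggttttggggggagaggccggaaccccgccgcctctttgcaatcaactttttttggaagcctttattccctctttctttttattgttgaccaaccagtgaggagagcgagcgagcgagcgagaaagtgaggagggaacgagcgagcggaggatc
The motifs were the nuclear receptor half-site AGGTCA, the GC box GGGCGG, the CCAAT box CCAAT, the TATA box TATAAA, the AP-1 site TGACTCA and the E-box CAGCTG, each searched on both strands; no 2 matches overlapped. Egfr held a GC box on the opposite strand whose first base lies 9 bases before the start, and Erbb4 held none of the 6. Over all 32851 stretches of this length in the table, 32.7% held a GC box, 33.9% a CCAAT box, 14.0% the half-site, 13.0% the E-box, 12.4% the TATA box and 4.46% the AP-1 site. GC content was 60.8% for Egfr and 54.0% for Erbb4, where the median of all stretches was 52.4%. A match is a description of the letters only.

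**Figure D1:**
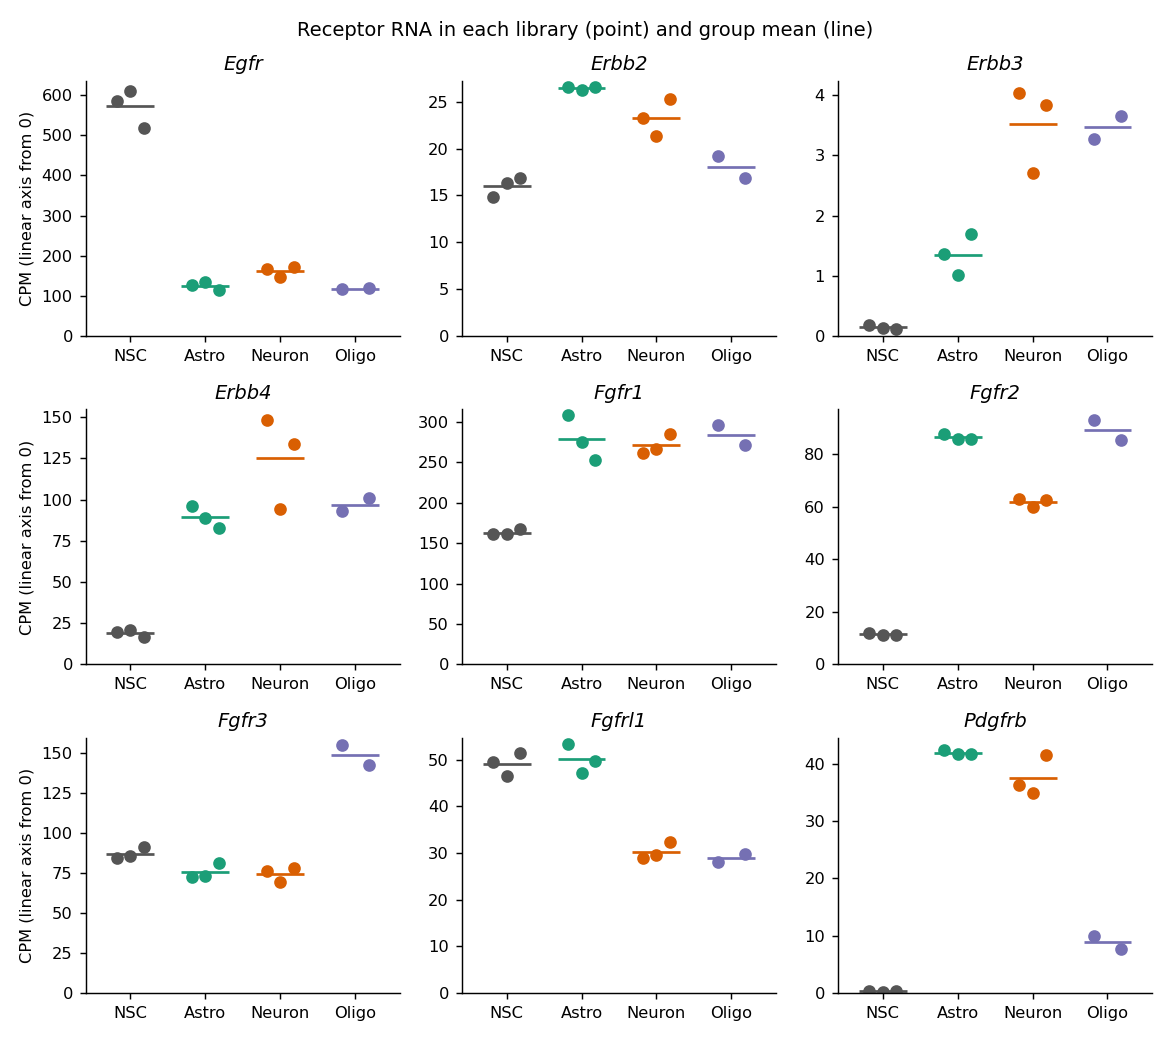
Level of each of the 9 receptor genes in CPM (vertical axes, linear from 0, with a different range per gene) by group; each point is 1 library and each line the group mean. Egfr is highest in all 3 NSC libraries, Fgfr3 in both Oligodendrocyte libraries, and Pdgfrb lies at 0.24 to 0.30 CPM in NSC and at 34.9 to 42.4 CPM in Astrocyte and Neuron.

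The first question was how the receptor set of the stem cells differed from that of the day 4 cultures. Egfr fell in every medium, whereas Erbb3, Erbb4, Fgfr1, Fgfr2 and Pdgfrb rose in every medium. The other 3 genes, Erbb2, Fgfr3 and Fgfrl1, depended on the medium. A gene was called when limma's Benjamini-Hochberg adjusted p was under 0.05. In Astrocyte vs NSC 6 of the 9 genes were called higher and 2 lower, 8 in all, where 83.6% of all genes tested were called (48% higher and 35.6% lower). In Neuron vs NSC 6 were called higher and 3 lower, against a background of 83.1% (43.5% higher and 39.6% lower). For Oligodendrocyte vs NSC the calls were 6 higher and 2 lower, against 80.2% (48.1% higher and 32.2% lower). The shares of receptors called were thus near those of all genes. Erbb3 and Pdgfrb passed the filter on low values only through day 4 libraries, so their being higher there is partly set by the filter. At a change of at least 2-fold on the log2(CPM + 1) scale, 5 of the 9 genes were called in each of these comparisons, where the background was 33.7%, 31.8% and 32%. Over all genes tested, the median log2 fold change against NSC was 0.15 for Astrocyte, 0.06 for Neuron and 0.19 for Oligodendrocyte, and at most 0.02 after median-of-ratios scaling. Libraries were fully separated for 8, 9 and 8 of the 9 receptors in Astrocyte, Neuron and Oligodendrocyte against NSC, where the background was 86.2%, 83.2% and 89.3%. The 3 comparisons share the NSC libraries and are therefore not independent of each other.

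**Figure D2:**
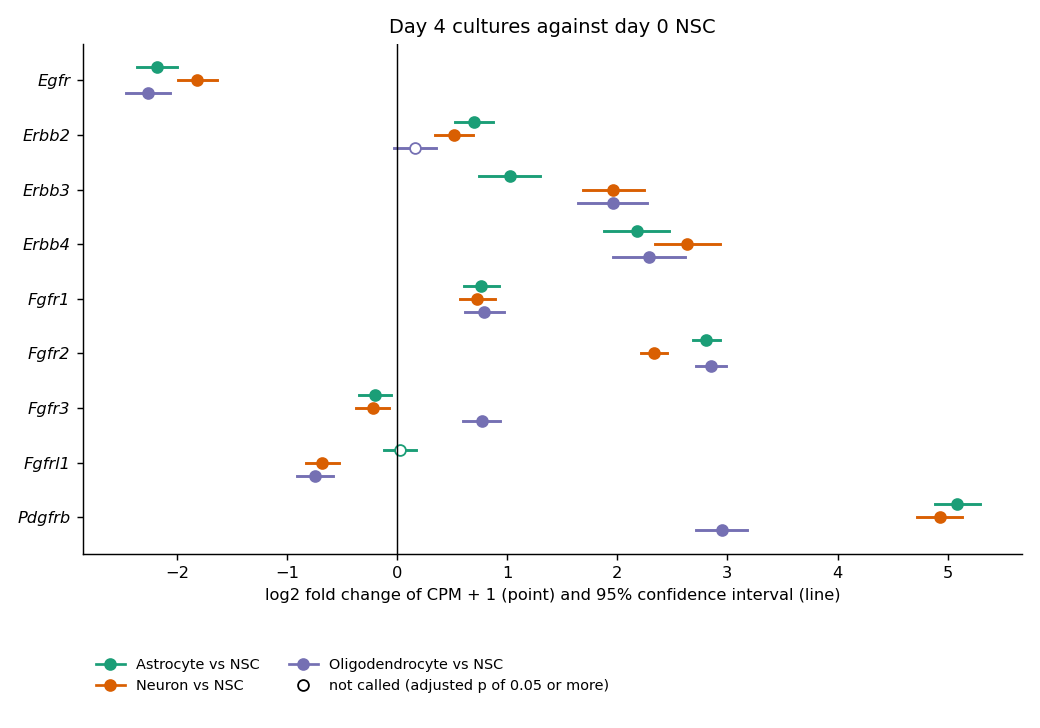
Log2 fold change of CPM + 1 against NSC (horizontal axis) with its 95% confidence interval for each receptor gene in each medium; filled points were called and open points were not. Egfr lies at -1.82 to -2.27 in all 3 media, Pdgfrb at 2.95 to 5.09, and Fgfr3 lies below 0 in 2 media and at 0.77 in Oligodendrocyte.

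Egfr encodes the EGF receptor and was the most abundant of the 9 in NSC (mm9 chromosome 11, 16652206 to 16818161). Its level was 586, 610 and 519 CPM in the 3 NSC libraries. After 4 days it was 126, 135 and 114 CPM in Astrocyte, 166, 147 and 172 CPM in Neuron, and 116 and 120 CPM in Oligodendrocyte. Every NSC library was far above every day 4 library, with no overlap. The mean fell 4.57-fold in Astrocyte (log2 fold change -2.18, SE 0.083, adjusted p 1.57e-11), 3.53-fold in Neuron (-1.82, SE 0.083, adjusted p 1.18e-10) and 4.85-fold in the medium with T3 (-2.27, SE 0.093, adjusted p 4.8e-11). Among the day 4 media, Egfr kept the highest level in Neuron, whose libraries did not overlap those of Astrocyte (log2 fold change -0.37, adjusted p 0.00168 for Astrocyte vs Neuron) or Oligodendrocyte (-0.45, adjusted p 0.000779 for Oligodendrocyte vs Neuron). Oligodendrocyte and Astrocyte did not differ beyond their spread, with a 95% confidence interval of -0.28 to 0.12 for the log2 difference.

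Erbb4, a neuregulin receptor, moved the other way (mm9 chromosome 1, 68078760 to 69154633). It was at 19.5, 21.1 and 16.6 CPM in NSC and reached 96.2, 89.0 and 83.02 CPM in Astrocyte, 148, 94.5 and 134 CPM in Neuron, and 92.8 and 100.9 CPM in Oligodendrocyte. The mean rose 4.69-fold in Astrocyte, 6.58-fold in Neuron and 5.08-fold in Oligodendrocyte, with log2 fold changes of 2.18, 2.64 and 2.29 and adjusted p of 2.86e-09, 3.95e-10 and 6.94e-09. Within the Neuron group, replicate 2 lay apart at 94.5 CPM, inside the range of the Astrocyte libraries. Neuron was nevertheless called higher than Astrocyte (log2 fold change -0.46 for Astrocyte vs Neuron, adjusted p 0.00926), while Oligodendrocyte vs Neuron was not called (-0.35, adjusted p 0.0579). Without Neuron replicate 2 the latter was called (-0.53, adjusted p 0.000111), and it was also called under each of the 3 other scalings of the libraries, at -0.42 to -0.50.

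Erbb3, the other neuregulin receptor and one that depends on a partner for its signal, was close to the lower limit of the measurement in NSC (mm9 chromosome 10, 128004579 to 128026708). The NSC libraries held 0.19, 0.14 and 0.12 CPM, which corresponds to an estimated 11, 8 and 7 reads. It reached 1.36, 1.01 and 1.69 CPM in Astrocyte, 4.04, 2.70 and 3.84 CPM in Neuron, and 3.27 and 3.66 CPM in Oligodendrocyte. The mean was 9.02-fold above NSC in Astrocyte, 23.5-fold in Neuron and 23.1-fold in Oligodendrocyte. On the log2(CPM + 1) scale, which compresses such low values, the changes were 1.02, 1.96 and 1.96. Erbb3 passed the filter only through day 4 libraries, so its being higher there was set in part by the filter. No p-value against NSC is therefore given. Astrocyte stood below both other media, by 0.94 against Neuron (adjusted p 2.68e-05 for Astrocyte vs Neuron) and by 0.93 against Oligodendrocyte (adjusted p 0.000116). For Oligodendrocyte vs Neuron the log2 difference was -0.01 with a confidence interval of -0.32 to 0.30. Sox10, a glial transcription factor of the oligodendrocyte lineage and one of the precursor markers, was at 2.71 CPM in NSC, 22.3 CPM in Astrocyte, 135 CPM in Neuron and 37.0 CPM in Oligodendrocyte, the same order of group means as Erbb3, although Oligodendrocyte was 3.64-fold below Neuron for Sox10 (log2 fold change -1.83, adjusted p 9.1e-08). Of the other precursor markers, Gpr17 and Lhfpl3 had this order too, and Pdgfra and Ptprz1 had other orders. Olig1, Olig2 and Cspg4 were instead highest in NSC, at 1019, 732.9 and 61.02 CPM. In Neuron they were at 439.9, 272.4 and 43.6 CPM. The marker list as a whole summed to 3377 to 3501 CPM in NSC, 1875 to 2096 CPM in Astrocyte, 3158 to 4175 CPM in Neuron and 2685 to 2771 CPM in Oligodendrocyte. The part of these cells in the Erbb3 result was not tested.

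Erbb2, the partner receptor without a ligand of its own, changed least among the 4 (mm9 chromosome 11, 98273784 to 98299030). It was at 14.8, 16.3 and 16.8 CPM in NSC, 26.6, 26.3 and 26.6 CPM in Astrocyte, 23.3, 21.4 and 25.3 CPM in Neuron, and 19.3 and 16.8 CPM in Oligodendrocyte. The rise was 1.66-fold in Astrocyte (log2 fold change 0.70, adjusted p 1.88e-06) and 1.46-fold in Neuron (0.52, adjusted p 3.78e-05). In Oligodendrocyte the libraries overlapped those of NSC and the log2 difference was 0.16, with a confidence interval of -0.03 to 0.36 and an adjusted p of 0.106. Oligodendrocyte was below Astrocyte (-0.53, adjusted p 0.000229) and below Neuron (-0.35, adjusted p 0.00331). The second of these calls was lost without Oligodendrocyte replicate 2 (-0.26, adjusted p 0.0597). The gene on the opposite strand at the 3′ end of Erbb2, 1810046J19Rik, averaged 13.8, 36.9, 27.4 and 34.4 CPM in NSC, Astrocyte, Neuron and Oligodendrocyte. The listed spans of Erbb2 and 1810046J19Rik share only bases 98299022 to 98299030. Whether the authors' counting used the strand is not stated, and reads at that shared end could not be assigned here.

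To compare levels between genes, CPM was divided by the length of all annotated exons of a gene in kilobases. On this scale Egfr made up 91.6% ± 0.61 (SD, n = 3) of the sum of the 4 EGF receptor family genes in NSC. Its share was 46.8% in Astrocyte, 48.7% in Neuron and 46.7% in Oligodendrocyte. The share of Erbb4 was 2.79% in NSC and 30.7%, 34.1% and 35.2% in the same order of media, and that of Erbb2 was 5.6% in NSC and 21.6%, 15.3% and 15.6%. Erbb3 stayed the smallest part, at 0.045% in NSC and 0.960%, 1.97% and 2.58% after the change of medium. The RNA of this family thus went from nearly all Egfr to a mixture in which Egfr and Erbb4 together held most of the sum. These shares are a description without a test.

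**Figure D3:**
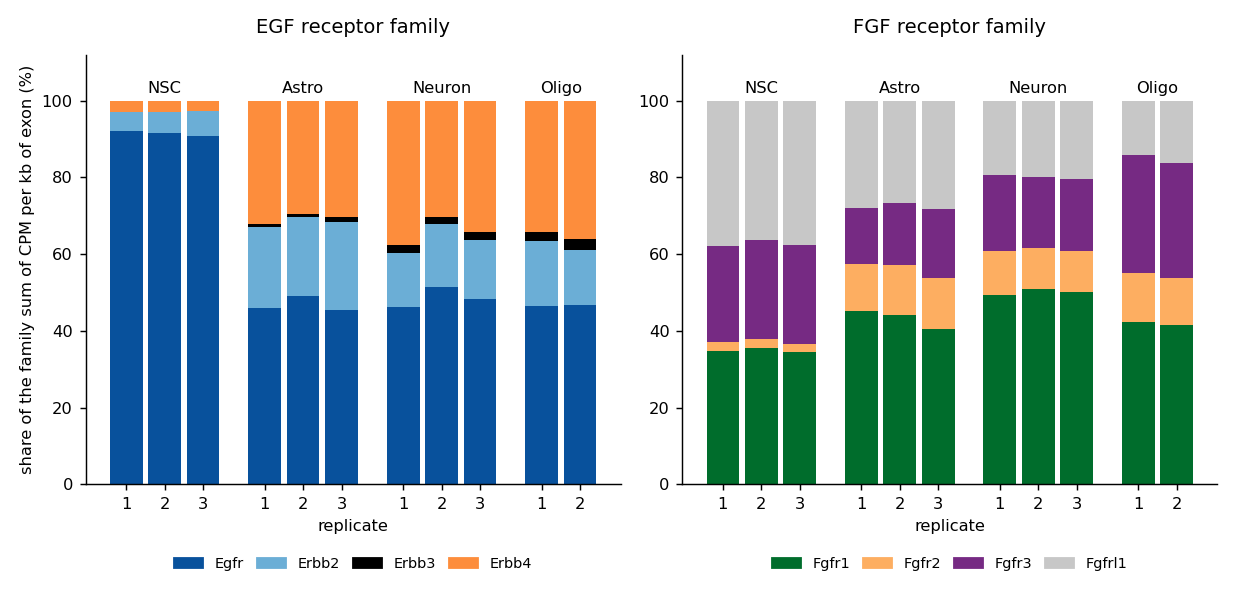
Share of each gene in the family's sum of CPM per kilobase of exon (vertical axis, percent), as 1 stacked bar per library, for the EGF receptor family (left) and the FGF receptor family (right). Egfr takes 90.9% to 92.1% of each NSC bar, and the mean share of Fgfr2 grows from 2.34% in NSC to between 10.95% and 12.9% at day 4.

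Fgfr1, the FGF receptor most widely expressed in neural precursors, rose by a like amount in each medium (mm9 chromosome 8, 26624126 to 26686186). Its level was 161, 161 and 168 CPM in NSC, 308, 276 and 253 CPM in Astrocyte, 262, 266 and 285 CPM in Neuron, and 296 and 271 CPM in Oligodendrocyte. All day 4 libraries were above all NSC libraries, and the day 4 groups overlapped each other. The rise was 1.71-fold, 1.66-fold and 1.74-fold for Astrocyte, Neuron and Oligodendrocyte, or 0.76, 0.73 and 0.79 as log2 fold changes (adjusted p 2.84e-07, 5.05e-07 and 7.56e-07). Between media the log2 differences were 0.03 to 0.06, and their confidence intervals together ran from -0.15 to 0.24. Fgfr1 was the highest of the 9 genes per kilobase in all 3 day 4 groups, at 28.2, 27.4 and 28.7 CPM per kilobase in Astrocyte, Neuron and Oligodendrocyte, where Egfr had been the highest in NSC at 50.5.

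Fgfr2, which binds FGF1 and several other FGFs, showed the largest fold rise of the FGF receptors. The NSC libraries held 11.8, 11.2 and 11.4 CPM. It was at 87.5, 85.6 and 85.7 CPM in Astrocyte, 63.0, 59.7 and 62.6 CPM in Neuron, and 92.8 and 85.3 CPM in Oligodendrocyte. The mean rose 7.54-fold, 5.40-fold and 7.78-fold, with log2 fold changes of 2.81, 2.33 and 2.85 (SE 0.056, 0.056 and 0.062; adjusted p 4.34e-14, 1.92e-13 and 1.86e-13). Neuron was the lowest of the day 4 groups, below Astrocyte (log2 fold change 0.48 for Astrocyte vs Neuron, adjusted p 6.9e-06) and below Oligodendrocyte (0.52 for Oligodendrocyte vs Neuron, adjusted p 7.53e-06), with no overlap in either comparison. The deposited table gives Fgfr2 a span of 3009 kb (mm9 chromosome 7, 137305965 to 140315033) that holds 41 other listed genes, 21 of them on the same strand and 23 of them reaching 1 CPM, so its count could hold or lose reads shared with them. The part of the other genes was not tested.

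Fgfr3, which in brain is best known from astrocytes and their precursors, was highest in the medium with T3 (mm9 chromosome 5, 34064373 to 34079716). It was at 84.0, 85.3 and 91.3 CPM in NSC, 72.1, 72.9 and 81.3 CPM in Astrocyte, 75.9, 69.3 and 77.9 CPM in Neuron, and 155 and 142 CPM in Oligodendrocyte. Both Oligodendrocyte libraries were above all other libraries. The mean rose 1.71-fold over NSC with T3 (a log2 fold change of 0.77 with SE 0.077 and adjusted p 5.61e-07) and was 1.15-fold below NSC in Astrocyte and 1.17-fold below in Neuron. Fgfr3 was called lower in Astrocyte (-0.20, adjusted p 0.0144) and in Neuron (-0.22, adjusted p 0.00852). The Astrocyte call was lost without NSC replicate 3 (-0.17, adjusted p 0.0611), without Astrocyte replicate 1 (adjusted p 0.058) or without Astrocyte replicate 2 (adjusted p 0.0567), and the Neuron call was lost under quantile normalization (-0.12, adjusted p 0.0905). Astrocyte and Neuron differed by 0.02 on the log2 scale, with a confidence interval of -0.13 to 0.17. The part of astrocyte content in the Fgfr3 result was not tested.

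Fgfrl1, the receptor of the family that lacks the kinase, separated the Astrocyte medium from both media based on Neurobasal (mm9 chromosome 5, 109123248 to 109135969). Its level was 49.4, 46.5 and 51.4 CPM in NSC and 53.4, 47.2 and 49.6 CPM in Astrocyte, which overlapped. It was 28.9, 29.5 and 32.4 CPM in Neuron and 28.0 and 29.8 CPM in Oligodendrocyte. The log2 fold change was 0.03 in Astrocyte (confidence interval -0.12 to 0.18, adjusted p 0.736), -0.68 in Neuron (adjusted p 5.81e-07) and -0.75 in Oligodendrocyte (adjusted p 8.14e-07). Astrocyte was above Neuron by 0.71 (adjusted p 1.26e-06) and Oligodendrocyte below Astrocyte by 0.77 (log2 fold change -0.77, adjusted p 2.59e-06). For Oligodendrocyte vs Neuron the value was -0.07 and not called (adjusted p 0.472), but it was called at -0.21 under median-of-ratios scaling (adjusted p 0.0154) and at -0.26 under quantile normalization (adjusted p 0.00656).

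In shares per kilobase of exon, Fgfr1 made up 34.9% of the FGF receptor family in NSC and 43.3%, 50.2% and 41.9% in Astrocyte, Neuron and Oligodendrocyte. Fgfr2 went from 2.34% to 12.9%, 10.95% and 12.6%. The share of Fgfr3 was 25.6% in NSC, 16.2% in Astrocyte, 19% in Neuron and 30.3% in Oligodendrocyte, and that of Fgfrl1 was 37.2%, 27.6%, 19.9% and 15.2% in the same order. These shares depend on the length used. With the longest coding transcript of each gene in place of all exons, Fgfr1 made up 42.3% and Fgfrl1 27.5% of the NSC sum, so the order of these 2 genes in NSC was reversed. The order changed at day 4 as well. Fgfr2 then lay above Fgfr3 in Astrocyte (17.5% and 15.6%) and above Fgfrl1 in Oligodendrocyte (16.6% and 10.0%). In Neuron both Fgfr3 (17.8%) and Fgfr2 (14.55%) lay above Fgfrl1 (13.2%). Fgfr4, the remaining kinase of the family, averaged at most 0.06 CPM in any group.

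Pdgfrb had the largest fold change of the 9 genes (mm9 chromosome 18, 61204804 to 61244715). The NSC libraries held 0.30, 0.24 and 0.25 CPM, an estimated 18, 14 and 15 reads. It was at 42.4, 41.6 and 41.7 CPM in Astrocyte, 36.3, 34.9 and 41.5 CPM in Neuron, and 10.0 and 7.62 CPM in Oligodendrocyte. The mean was 159-fold above NSC in Astrocyte, 143-fold in Neuron and 33.5-fold in Oligodendrocyte. Pdgfrb passed the filter only through day 4 libraries, so its being higher there was set in part by the filter. No p-value against NSC is therefore given. On the log2(CPM + 1) scale the changes were 5.09 (SE 0.095), 4.93 (SE 0.095) and 2.95 (SE 0.106). They grew to 6.86, 6.69 and 4.61 with a pseudocount of 0.1 and shrank to 3.16, 3.01 and 1.39 with a pseudocount of 5, so the size of this fold change is set in part by the scale. Oligodendrocyte was 4.26-fold below Neuron (log2 fold change -1.98, SE 0.106, adjusted p 3.68e-09) and 4.75-fold below Astrocyte (-2.14, adjusted p 4.27e-09). Astrocyte and Neuron did not overlap, but their log2 difference of 0.16 was not called (confidence interval -0.05 to 0.37, adjusted p 0.162).

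Because Pdgfrb is a marker of pericytes, the other markers of pericytes and smooth muscle were set beside it. The 10 markers summed to 55.8 to 58.5 CPM in NSC, 90.1 to 102.1 CPM in Astrocyte, 42.7 to 59.5 CPM in Neuron and 49.3 to 54.0 CPM in Oligodendrocyte. Notch3 carried much of these sums, at means of 43.04, 45.53, 45.31 and 34.65 CPM in the same order, and was not called against NSC. Of the 10, 5 passed the filter and against NSC 3 were called higher and 1 lower in Astrocyte, 2 and 2 in Neuron, and 1 and 1 in Oligodendrocyte, where 48%, 43.5% and 48.1% of all genes were called higher. The higher calls were Rgs5, Vtn and Acta2 in Astrocyte, Rgs5 and Vtn in Neuron, and Vtn in Oligodendrocyte. Those of Rgs5 and Vtn were set in part by the filter, as given below. Kcnj8, Abcc9 and Anpep, which mark brain pericytes, averaged at most 0.14 CPM in every group, and Kcnj8 and Anpep were 0 in both Oligodendrocyte libraries. Vtn, also among the 10, instead rose from 0.117 CPM in NSC to 2.29 CPM in Astrocyte, 1.63 CPM in Neuron and 4.4 CPM in Oligodendrocyte. It was called higher than NSC in each medium. Vtn passed the filter only through day 4 libraries, so its being higher there was set in part by the filter. Rgs5, another pericyte gene, averaged 0.22 CPM in NSC, 1.24 CPM in Astrocyte, 1.22 CPM in Neuron and 0.175 CPM in Oligodendrocyte, an order of the groups in which Astrocyte and Neuron were also highest. Rgs5 passed the filter only through Astrocyte and Neuron libraries, so its being highest there was set by the filter. Acta2, the smooth muscle actin, was at 42.0 CPM in Astrocyte and 2.94 CPM in Neuron, unlike Pdgfrb. Markers of fibroblasts, which also express Pdgfrb, summed to 34.4 to 35.9 CPM in NSC and 15.5 to 24.5 CPM in the day 4 libraries. Endothelial markers summed to at most 7.37 CPM and microglial markers to at most 1.32 CPM in any library.

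Pdgfra, the receptor of oligodendrocyte precursors and a gene outside the set, was the other PDGF receptor. It averaged 21.2 ± 0.98 CPM (SD, n = 3) in NSC and 76.9 ± 8.1 CPM (SD, n = 3) in Astrocyte. The Neuron mean was 211 ± 37 CPM (SD, n = 3). Both Oligodendrocyte libraries held 66.2 CPM. Both PDGF receptors were thus lower with T3 than in the Neuron medium, Pdgfra by 3.19-fold (log2 fold change -1.64, adjusted p 1.04e-07). In Astrocyte, however, Pdgfra was 2.74-fold below Neuron (-1.43, adjusted p 1.43e-07) while Pdgfrb was not called different.

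The direct comparison of the day 4 media asked which receptors differed with the medium alone, time being equal. The Oligodendrocyte and Neuron media differed by T3 as the labels describe them, and Astrocyte differed from both in basal medium, supplement and serum. In Oligodendrocyte vs Neuron 2 genes were called higher (Fgfr2 and Fgfr3) and 3 lower (Egfr, Erbb2 and Pdgfrb), where 67.5% of all genes were called (43.9% higher and 23.6% lower). Only Pdgfrb among these 9 changed by at least 2-fold on the log2(CPM + 1) scale, where the background was 12.5%, and Fgfr3 fell just short at 0.99. In Oligodendrocyte vs Astrocyte Erbb3 and Fgfr3 were higher and Erbb2, Fgfrl1 and Pdgfrb lower, 5 calls where the background was 52.2% (28.7% higher and 23.5% lower), and Pdgfrb alone was called at 2-fold, where the background was 7.94%. In Astrocyte vs Neuron Fgfr2 and Fgfrl1 were higher and Egfr, Erbb3 and Erbb4 lower, 5 calls where the background was 62.2% (40.3% higher and 22% lower), and none of the 9 was called at 2-fold, where 9.34% of all genes did. The shares of receptors called were near the background in all 3 comparisons. Groups did not overlap for 5 receptors in Oligodendrocyte vs Neuron (75.7% of all genes), 5 in Oligodendrocyte vs Astrocyte (71.7%) and 6 in Astrocyte vs Neuron (63%).

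**Figure D4:**
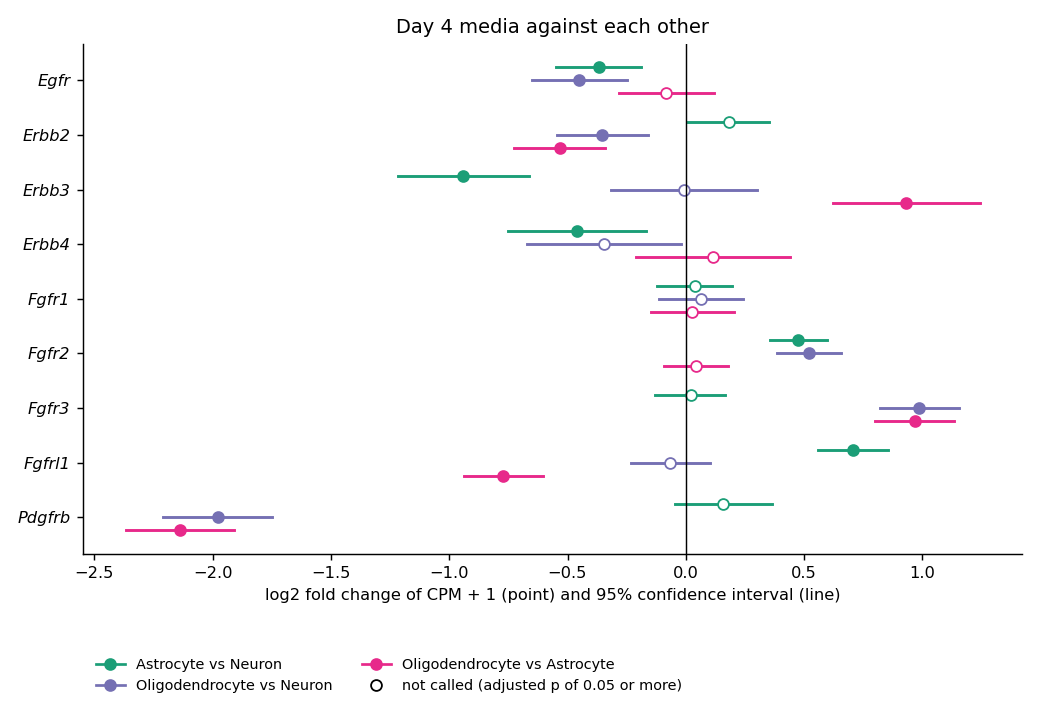
Log2 fold change of CPM + 1 between day 4 groups (horizontal axis) with its 95% confidence interval for each receptor gene; filled points were called and open points were not. Pdgfrb lies near -2 in both comparisons of Oligodendrocyte, Fgfr3 near 1 in both, and all 3 intervals of Fgfr1 include 0.

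Genes with the most similar pattern were sought by the smallest root mean square (RMS) difference of log2(CPM + 1), centred per gene, over the 11 libraries and 10304 genes that reached a group mean of 10 CPM. The closest match was that of Fgfr1 with Pank1, at an RMS difference of 0.064, followed by Erbb2 with Gas8 at 0.067. For Fgfr2 the nearest was Npr2, the receptor of C-type natriuretic peptide, at 0.077 (Pearson r 0.999 over the 11 libraries, which fall into 4 groups). Npr2 averaged 7.91 CPM in NSC, 56.4 CPM in Astrocyte, 40.6 CPM in Neuron and 55.9 CPM in Oligodendrocyte. Egfr was nearest to the cadherin gene Cdh4 (0.115) and to Cenpl (0.118), Erbb3 to Mpzl1 (0.157) and Smox (0.160), and Erbb4 to Epha3 (0.131) and Ralgps1 (0.1497). Fgfr3 was nearest to Bcat1 (0.108), a branched-chain amino acid transaminase that averaged 47.9 CPM in Oligodendrocyte and 23.4 to 29.9 CPM elsewhere. Fgfrl1 was nearest to Reep2 (0.102) and Uaca (0.107). Pdgfrb had the least close neighbours, Islr (0.220), listed at 0 in all NSC libraries, and C1ql1 (0.253). The second neighbours of Erbb2, Fgfr1, Fgfr2 and Fgfr3 were Zmym3, Ip6k2, Man2b2 and C630004H02Rik.

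The genes for the ligands of these receptors were described from lists of the 3 families. Of 11 ligands of the EGF receptor family 6 were tested, and those of EGFR moved in different directions. Tgfa, which encodes TGF-alpha, rose from 6.08 CPM in NSC to 19.1 CPM in Astrocyte, 40.8 CPM in Neuron and 43.8 CPM in Oligodendrocyte, a rise of 3.15-fold, 6.71-fold and 7.20-fold (adjusted p 1.11e-08, 4.57e-11 and 1.17e-10). It therefore rose in the media in which Egfr fell. Hbegf fell from 29.0 CPM to 20.9, 11.2 and 20.7 CPM in Astrocyte, Neuron and Oligodendrocyte (adjusted p 3.02e-05, 5.34e-10 and 7.12e-05). Areg, the gene of amphiregulin, averaged 2.21 CPM in NSC and 0.030, 0.353 and 0.175 CPM in Astrocyte, Neuron and Oligodendrocyte. It passed the filter only through the NSC libraries, so its being higher there was set by the filter and no test is given. Egf itself was low throughout, between 0.683 and 1.23 CPM on average. Its log2 fold change of 0.39 in Neuron vs NSC turned to -0.10 under quantile normalization. Egf passed the filter only through day 4 libraries, so its being higher there was set in part by the filter and no test is given.

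The neuregulins Nrg1 and Nrg2 are ligands of ERBB3 and ERBB4. Nrg1 was highest in Oligodendrocyte, whereas Nrg2 was similarly high in Astrocyte and Oligodendrocyte. Nrg1 averaged 1.39 CPM in NSC, 1.32 CPM in Astrocyte, 0.500 CPM in Neuron and 8.59 CPM in Oligodendrocyte, 17.2-fold above Neuron (log2 fold change 2.68, adjusted p 5.77e-09). Nrg2 averaged 2.18 CPM in NSC, 5.65 CPM in Astrocyte, 2.32 CPM in Neuron and 5.62 CPM in Oligodendrocyte, and its rise over NSC was called in Astrocyte (1.06, adjusted p 3.1e-07) and in Oligodendrocyte (1.05, adjusted p 1.27e-06).

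**Figure D5:**
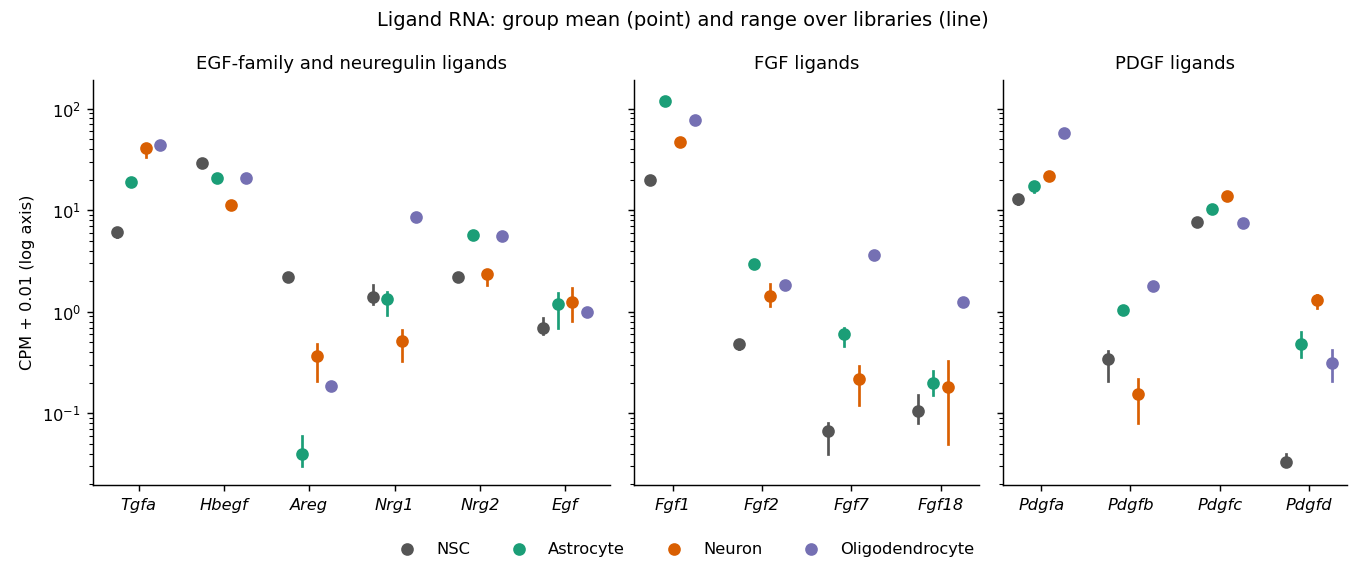
Level of the ligand genes that were tested (vertical axis, CPM + 0.01 on a log scale), with the group mean as a point and the range over libraries as a line. Tgfa, Fgf1 and Pdgfa lie above NSC in all 3 media, and Nrg1, Fgf7, Fgf18 and Pdgfa are highest in Oligodendrocyte.

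Of 18 FGF ligand genes 4 were tested. Fgf1, which binds all FGF receptors, rose from 19.8 CPM in NSC to 119 CPM in Astrocyte, 46.4 CPM in Neuron and 77.1 CPM in Oligodendrocyte, log2 fold changes of 2.53, 1.19 and 1.90 (adjusted p 1.63e-12, 4.85e-09 and 1.35e-10). Fgf2 rose from 0.467 CPM to 2.92, 1.42 and 1.82 CPM in the same order. Its NSC mean lay under the filter of 1 CPM, so its being higher at day 4 was set in part by the filter. The rise was called in all 3 media, but under quantile normalization not in Neuron (0.22) or Oligodendrocyte (0.27). Fgf7, a ligand of an FGFR2 isoform, and Fgf18 were highest in Oligodendrocyte, at 3.59 and 1.23 CPM, where Neuron held 0.210 and 0.173 CPM. Both passed the filter only through the Oligodendrocyte libraries, so their being higher there was set by the filter and no test is given.

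All 4 PDGF genes were tested. Pdgfa, the ligand of PDGFRA, was at 12.8 CPM in NSC, 17.2 CPM in Astrocyte, 21.5 CPM in Neuron and 57.2 CPM in Oligodendrocyte, 2.66-fold above Neuron (log2 fold change 1.37, adjusted p 1.19e-07). Of the ligands of PDGFRB, Pdgfb was at 0.333, 1.03, 0.147 and 1.78 CPM and Pdgfd at 0.023, 0.473, 1.30 and 0.305 CPM in NSC, Astrocyte, Neuron and Oligodendrocyte. Pdgfb was thus higher with T3 than in the Neuron medium. It passed the filter only through Astrocyte and Oligodendrocyte libraries, so its being higher there was set in part by the filter and no test is given. Pdgfd passed the filter only through the Neuron libraries, so its being highest there was set by the filter. Pdgfc averaged 7.67, 10.4, 13.7 and 7.42 CPM, and Oligodendrocyte was below Neuron (-0.81, adjusted p 2.91e-06). In Astrocyte vs NSC Pdgfa and Pdgfc were called higher, where 48% of all genes were, but neither was under quantile normalization. Pdgfb, limited by the filter, and Pdgfd, under 1 CPM on average in both groups, are left out of this count. Under quantile normalization Pdgfb lay at -0.06.

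FGF receptors bind their ligands together with heparan sulfate, which is carried by syndecans and glypicans. Of 14 partner genes of FGF receptors 12 were tested. Besides syndecans and glypicans, those tested included Flrt1, Flrt2, Flrt3, Ndst1, Hs2st1 and Hs6st1. The calls were 5 higher and 6 lower in Astrocyte vs NSC, 4 and 8 in Neuron vs NSC, 5 and 5 in Oligodendrocyte vs NSC, and 10 higher and 2 lower in Oligodendrocyte vs Neuron. The shares of all genes called were 83.6%, 83.1%, 80.2% and 67.5% in these comparisons, with 43.9% higher in the last, where the median log2 fold change of the list was 0.77 against 0.15 over all genes. Within the syndecans, Sdc1 fell from 44.5 CPM in NSC to 7.18, 3.99 and 10.8 CPM in Astrocyte, Neuron and Oligodendrocyte and Sdc3 from 373 CPM to 81.4, 147 and 103 CPM, whereas Sdc2 rose from 38.6 CPM to 164, 89.8 and 115 CPM and Sdc4 from 39.4 CPM to 248.7, 77.2 and 132 CPM. The glypicans Gpc1 and Gpc4 were at 93.2 and 65.6 CPM in Oligodendrocyte and at 39.3 and 15.8 CPM in Neuron (log2 fold changes 1.23 and 1.99). Flrt1, a membrane protein that binds FGF receptors, was at 32.0 CPM in Oligodendrocyte, 5.20 CPM in Neuron, 4.19 CPM in Astrocyte and 1.25 CPM in NSC.

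Adaptors couple the receptors to downstream kinases. Of 16 adaptor genes, 8 were called higher and 3 lower in Astrocyte vs NSC, 10 and 4 in Neuron vs NSC, and 8 and 3 in Oligodendrocyte vs NSC, where 83.6%, 83.1% and 80.2% of all genes were called. The median log2 fold changes of the list were 0.17, 0.23 and 0.20, where those of all genes were 0.15, 0.06 and 0.19. Gab1, a docking protein, rose from 86.6 CPM to 159, 190 and 162 CPM in Astrocyte, Neuron and Oligodendrocyte. Among the Shc adaptors, Shc3 fell from 30.3 CPM to 7.67, 8.40 and 7.97 CPM and Shc2 rose from 1.04 CPM to 3.88, 6.21 and 9.03 CPM. Ptpn11, the gene of the phosphatase SHP2, was highest in Oligodendrocyte, at 354 CPM against 172 CPM in Neuron (log2 fold change 1.05). Of 10 genes from RAS to ERK, 8 were called higher and none lower in Oligodendrocyte vs Neuron, by limma's adjusted p, and 2 were called higher and 6 lower in Neuron vs NSC, where 43.9% of all genes were called higher in the first and 39.6% lower in the second. Hras was at 43.9 CPM in Oligodendrocyte and 17.6 CPM in Neuron (log2 fold change 1.27).

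Feedback inhibitors limit the signal of these receptors. Of 18 inhibitor genes 17 were tested, of which 4 were called higher and 12 lower in Astrocyte vs NSC, 3 and 9 in Neuron vs NSC, and 4 and 11 in Oligodendrocyte vs NSC, where 35.6%, 39.6% and 32.2% of all genes were called lower. In Neuron 5 of the 17 were not called. The median log2 fold changes were -0.76, -0.20 and -0.63. Spry4 fell from 277 CPM in NSC to 5.70, 11.8 and 9.59 CPM in Astrocyte, Neuron and Oligodendrocyte, and Spry1 from 104 CPM to 4.68, 7.80 and 11.6 CPM. Lrig1, an inhibitor of the EGF receptor family, fell less, from 372 CPM to 225, 325 and 193 CPM. Il17rd, an inhibitor of FGF signalling, was at 29.1 CPM in NSC, 36.6 CPM in Neuron and 7.82 CPM in Oligodendrocyte, where it was 4.68-fold below Neuron (log2 fold change -2.09, adjusted p 3.37e-08). Of 10 ERK responsive genes 9 were tested, and 8 were called lower in Astrocyte, 7 in Neuron and 8 in Oligodendrocyte against NSC, beside the same shares of all genes. Etv5 fell from 358 CPM to 31.8, 85.3 and 30.6 CPM, Dusp6 from 240 CPM to 9.28, 18.6 and 16.5 CPM, and Ccnd1 from 1733 CPM to 20.1, 20.6 and 47.5 CPM. Fos was instead called higher in Astrocyte and Neuron, at 48.2 and 38.5 CPM against 16.8 CPM in NSC. Etv1 was not called in Neuron, at 136.9 CPM against 121.4 CPM in NSC, but was called higher there under quantile normalization (0.25).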

How the data were processed

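RNA-seq libraries (TruSeq Stranded mRNA, per the labels' protocols) of 11 cultures were analysed. The authors deposited 1 table of CPM values per gene and library, rounded to 2 decimals; the submitters' processing notes name bcl2fastq 1.8.4, TopHat2 2.0.8, HTSeq 0.6.1, edgeR 3.2.4, R 3.0.0, HOMER and the mouse build NCBIM37 (mm9), without roles. Strand use in counting is not given in the sources used here. The main unit is CPM, and count models were not used. Depth (49.3 to 66.2 M reads) was estimated from the spacing of low CPM values.

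Values were put on the log2(CPM + 1) scale. The 13342 genes that reached 1 CPM in 2 or more libraries were fitted with limma 3.58.1 in R 4.3.3 with 1 mean per group over all libraries and a trended prior variance (7 degrees of freedom from residuals, 5.96 from the prior). The 6 pairs of groups were compared two-sided with Benjamini-Hochberg adjustment over all genes, and calls needed an adjusted p under 0.05. The fit was tested on simulated data. Fold changes given as "-fold" are ratios of mean CPM; log2 fold changes are on the log2(CPM + 1) scale and understate low genes. Positions are from the deposited table (mm9), exon lengths from GENCODE vM21 and start regions from RefSeq (GRCm38.p6).

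The members, lists and tests were chosen with earlier results of these data known. All 9 receptors were named; from each list the 4 most abundant genes could be named, with every tested ligand and genes called at 2-fold in Oligodendrocyte vs Neuron or against NSC in all media. Sox10, Cspg4, Lhfpl3, Nefl, Nefm, Stmn2, Kcnj8, Abcc9, Anpep, Rgs5 and Acta2 were named as markers, and 1810046J19Rik, which overlaps Erbb2, after its values were seen. The symbols Hras, Map2 and Myrf were matched by Ensembl identifier. Alternatives were pseudocounts of 0.1 and 5, no filter or 5 CPM, 3 other scalings, no trend, 2-group fits, a replicate block, leaving out each replicate and, added after seeing the data, another length for the family shares. Same-numbered libraries did not deviate together, so replicates were not treated as pairs.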

Additional observations from a re-analysis of the deposited data

Results flagged for a closer look

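Fgfr3 moved in opposite directions in different media: against NSC it was called lower in Astrocyte and Neuron and higher in Oligodendrocyte. The difference itself was tested. The log2 fold change was 0.988 (0.99, SE 0.077, adjusted p 1.22e-07, limma) for Oligodendrocyte vs Neuron and 0.968 (0.97, SE 0.077, adjusted p 2.76e-07, limma) for Oligodendrocyte vs Astrocyte, with both Oligodendrocyte libraries above all 3 libraries of the other group in each comparison. Over all alternatives the first value ran from 0.83 to 1.05 and the second from 0.90 to 1.03. The lower calls against NSC in Astrocyte and Neuron are small and did not hold under every alternative, whereas the higher call in Oligodendrocyte rests on 2 libraries.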

How the results depend on the processing

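The 9 receptors in 6 comparisons gave 54 results, recomputed under 21 alternatives (1128 values, since the filter of at least 5 CPM leaves out Erbb3). Of these, 1116 kept their call and direction, 5 lost a call, 7 gained one and none reversed; 48 results changed under no alternative. Besides the changes given in the report, Astrocyte vs Neuron for Erbb2 was called without Neuron replicate 3 (0.24, adjusted p 0.0295, limma). Leaving out each replicate in turn gave 7 to 8 receptors called in Astrocyte vs NSC, 5 to 6 in Astrocyte vs Neuron and 4 to 6 in Oligodendrocyte vs Neuron, and left it at 9 for Neuron and 8 for Oligodendrocyte against NSC and at 5 for Oligodendrocyte vs Astrocyte. Without 1 Oligodendrocyte library the remaining one is assumed to vary like the other groups. For the named pathway and ligand genes, 5930 of 6108 values kept call and direction, 132 lost a call, 42 gained one and 4 reversed. All 4 reversals were under quantile normalization: Fgf18 (-0.31) and Pdgfb (-0.0556) in Astrocyte vs NSC, and Egf (-0.10) and Nrg2 (-0.39) in Neuron vs NSC; the cause was not tested. The fold changes of genes near 0 CPM in NSC depend on the pseudocount, and with 7 to 18 estimated reads per NSC library for Erbb3 and Pdgfrb depth limits their ratios.

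With the replicate number as a block, the replicate block fit called 8, 9 and 8 receptors in Astrocyte, Neuron and Oligodendrocyte vs NSC and 5 in each comparison between media, the same counts as without it. Same-numbered libraries of different groups had a median correlation of deviations of 0.035 (15 pairs, -0.505 to 0.415), so the numbers were not taken as pairs. Among the other named genes the block lost the calls of Crk in Astrocyte vs NSC (-0.12, adjusted p 0.0566) and of Spry4 (-0.26, adjusted p 0.0552) and Spred2 (0.26, adjusted p 0.0681) in Oligodendrocyte vs Neuron.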
